A study of Mus musculus with 4 samples.

Results

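The genes described here are those of the semaphorin, netrin, Slit and ephrin guidance systems, picked by gene name. The set was chosen with earlier results of these data known. All semaphorins, plexins, netrins, UNC5 genes, Slits, Robos, ephrins and Eph receptors were taken, with Dcc and Neo1, which gave 70 of the 17575 genes listed in any library. 29 of them are semaphorins or plexins, 13 belong to the netrin system, 7 are Slits or Robos and 21 are ephrins or Eph receptors. RNA-seq was done on chondrocytes, the cells that make cartilage matrix, which were released by collagenase from rib cartilage and plated before RNA extraction; the mice were C57/Bl6 and 10 days old. The 2 KO libraries came from mice with the Col2Cre(Tg) transgene, the Kdm6a(fl/fl) genotype and the Kdm6b(fl/fl) genotype, and the 2 WT libraries from wild type mice. The Cre is named for the cartilage collagen gene Col2a1, so other cell types in the plated digest need not have lost the floxed alleles. Kdm6a and Kdm6b encode histone H3 demethylases. The comparison asks how gene expression differed between KO and WT. The Cre transgene, the floxed alleles and any loss of Kdm6a and Kdm6b came together in the KO mice, so their effects cannot be told apart. The design text mentions triplicates; each group has 2 libraries here. The labels do not say whether replicates came from separate mice, so the p-values measure the spread between libraries, which may be technical.

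Guidance systems pair a ligand on one cell, or secreted by it, with a receptor on another. Semaphorins signal through plexins, often with a neuropilin as co-receptor; netrins through DCC, neogenin and the UNC5 receptors; Slits through Robos; and ephrins through Eph receptor tyrosine kinases, with signals passing in both directions between touching cells. They were first described in growing axons, and they also act in blood vessels and in the skeleton, where semaphorins and ephrins pass between osteoclasts and osteoblasts.

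Each library held between 31178248 and 32332044 estimated counts, with 16199 to 16514 genes listed. Kdm6a was at 5.41 and 5.94 FPKM (fragments scaled to gene length and library size) in the KO libraries, against 9.83 and 10.4 FPKM in the WT libraries. Kdm6b was at 7.76 and 6.96 FPKM in the KO libraries, against 19.6 and 17.2 FPKM in the WT libraries. Both were lower in each KO library than in each WT library, and neither was at 0 in the KO. The summed FPKM of 10 listed chondrocyte markers, Col2a1 and Acan among them, was 11656 and 11250 in the KO libraries and 8543 and 8004 in the WT libraries, so the labelled cell type was present in all 4. Most of that sum was Col2a1, at 7547 and 7426 FPKM in the KO libraries and 5220 and 4767 FPKM in the WT libraries. These markers moved as well: Col2a1, Col9a1 and Matn3 rose, 9 of the 10 log2 fold changes were above 0, and that of Sox9 was -0.19. Markers of other cell types were also present, and some moved between the groups. All 10 endothelial markers had log2 fold changes below 0 and 3 fell, Pecam1, Cdh5 and Tek, with a summed FPKM of 34.1 and 30.8 in the KO libraries and 46.6 and 40.8 in the WT libraries. Of 7 tested macrophage markers Lyz2 and Cd14 fell. 6 of the 7 log2 fold changes were below 0, and that of Adgre1 was 0.21. The sum over the 11 markers was 61.2 and 69.5 FPKM in the KO libraries and 111 and 109 FPKM in the WT libraries. Most of it was Cd14, at 37.3 and 46.2 FPKM in the KO libraries and 74.9 and 76.9 FPKM in the WT libraries. C1qa, C1qb and C1qc had too few counts to be tested and were higher in both KO libraries than in both WT libraries. C1qc, a defining macrophage marker, was at 0.03 and 0.06 FPKM in the KO libraries and absent from both WT libraries. Among osteoblast markers 1 of 7 fell, Bglap, with a summed FPKM of 1.84 and 3.34 in the KO libraries and 8.82 and 7.5 in the WT libraries. 3 of 5 tested erythroid markers fell, with a sum of 20.7 and 25.6 FPKM in the KO libraries and 43.8 and 54.8 FPKM in the WT libraries. 4 of the 5 log2 fold changes were below 0, and that of Alas2 was 0.21. Of 7 fibroblast markers Col1a2 and Dcn fell, while Postn and Lum had log2 fold changes of 0.12 and 0.35, and the sum was 246.1 and 334.3 FPKM in the KO libraries and 386.2 and 570.2 FPKM in the WT libraries. Of 6 smooth muscle and pericyte markers 1 rose, Acta2, at 66.2 and 65.1 FPKM in the KO libraries and 19.0 and 23.2 FPKM in the WT libraries (log2 fold change 1.60, SE 0.11, adjusted p = 0.0018), with the other 5 at 0.81 FPKM or below. Mbp was the 1 of 6 tested Schwann cell and glia markers that fell. 5 of the 6 log2 fold changes were below 0, and that of Sox10 was 0.86. None of 3 tested osteoclast and 5 tested skeletal muscle markers passed. The 8 neuron markers summed to 1.54 and 1.21 FPKM in the KO libraries and 1.34 and 1.05 FPKM in the WT libraries, with Rbfox3 at 0.01 FPKM or below, and none of the 4 tested passed. The part of these cell types in the results below was not tested.

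In the KO libraries 10 guidance genes fell and 1 rose. Sema7a, Epha2, Unc5b, Sema4d, Ntn4, Ephb3, Sema6a, Sema4b, Efnb1 and Sema3e fell, and Unc5c, a netrin receptor, rose. Changed here means an adjusted p under 0.05 in edgeR's quasi-likelihood test of KO against WT, adjusted over all 13773 tested genes. The 11 genes are 18.6% of the 59 guidance genes tested, where 9.25% of all tested genes changed. The 10 that fell are 16.9% of the guidance genes, against 5.63% of all tested genes. The 1 that rose stands beside 3.62% of all tested genes. The median log2 fold change of the 59 was -0.31, with 40 below 0 and 19 above, and that of all tested genes was 0.00. In TMM-scaled counts, both KO libraries lay below both WT libraries in 29 of the 59 genes (49.2%) and above both in 11 (18.6%), where 30.7% of all tested genes lay below and 30.9% above, 61.7% in all. By FPKM, 26 of the 59 lay below and 11 above. The plot of guidance genes among all tested genes shows where these genes stand.

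**Figure D1:**
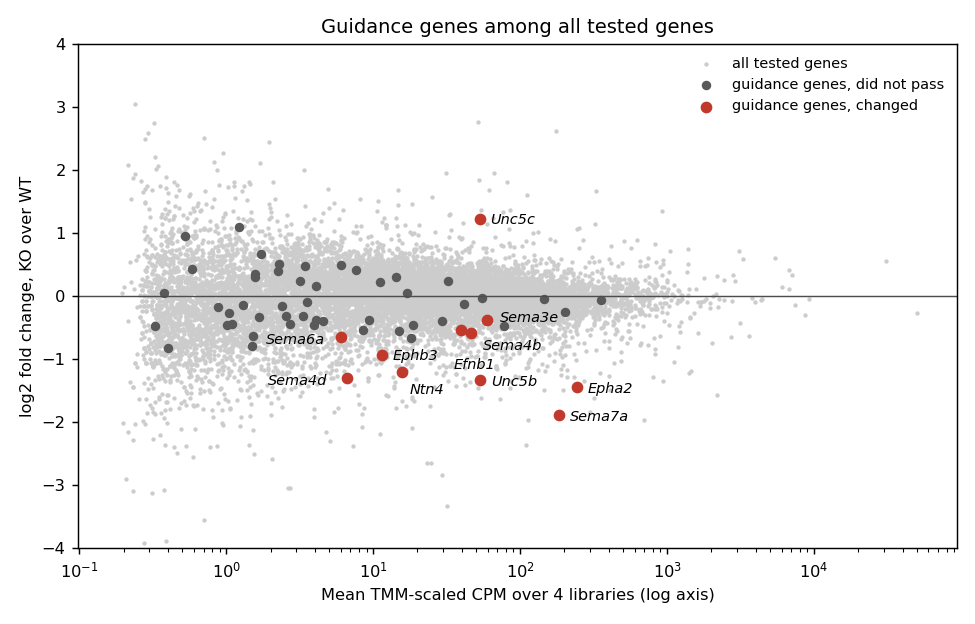
Each point is 1 tested gene, with its mean TMM-scaled CPM (counts scaled to library size) over the 4 libraries on a log axis and its log2 fold change, KO over WT, on the linear axis. 12 genes with a log2 fold change beyond 4 in size lie outside the plot. 10 of the 11 changed guidance genes (red, named) lie below 0 and Unc5c lies above it, and Sema7a and Epha2 are the lowest of the guidance genes.

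A pair of genes carried most of the fall. Summed over all 70 genes, guidance transcripts were at 292.9 and 299.3 FPKM in the KO libraries and at 446.5 and 444.4 FPKM in the WT libraries. Sema7a and Epha2 together were at 59.5 and 55.0 FPKM in the KO libraries and at 176.3 and 173.8 FPKM in the WT libraries, which is 78.9% of the difference between the group means. They made up 20.3% and 18.4% of guidance FPKM in the KO libraries and 39.5% and 39.1% in the WT libraries. Without them the sum was 233.4 and 244.3 FPKM in the KO libraries and 270.2 and 270.6 FPKM in the WT libraries. Neo1 was the guidance gene with the highest level in the KO libraries, and Epha2 and Sema7a were above it in the WT libraries. 9 of the 70 genes averaged at least 10 FPKM over the 4 libraries, 21 were between 1 and 10 FPKM, 27 between 0.1 and 1 FPKM, and 13 below 0.1 FPKM.

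**Figure D2:**
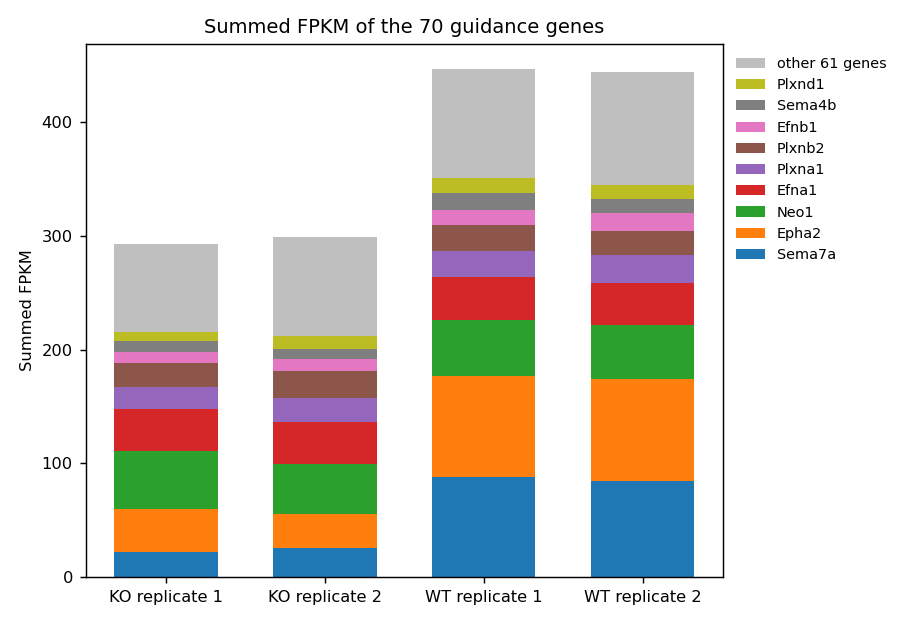
Summed FPKM of the 70 guidance genes in each library, with the 9 genes of at least 10 FPKM on average drawn as their own segments and the other 61 genes in grey. The Sema7a and Epha2 segments are shorter in both KO bars (59.5 and 55.0 FPKM together) than in both WT bars (176.3 and 173.8 FPKM), while Neo1 and Efna1 have about the same height in all 4.

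Sequence upstream of the start is shown for 4 genes, the most abundant semaphorin and Eph receptor of these cells, which both fell, and the UNC5 receptor that fell beside the one that rose. Each is the 250 bases before the annotated start, 5′ to 3′ on the gene's own strand, from RefSeq on the mouse build GRCm38.p6. Sema7a is on the plus strand at chr9:57939862-57940111, Epha2 on the plus strand at chr4:141300971-141301220, Unc5b on the minus strand at chr10:60831582-60831831 and Unc5c on the plus strand at chr3:141465314-141465563. Capitals mark the GC box GGGCGG on either strand, read as CCGCCC where it lies on the other one.
Sema7a: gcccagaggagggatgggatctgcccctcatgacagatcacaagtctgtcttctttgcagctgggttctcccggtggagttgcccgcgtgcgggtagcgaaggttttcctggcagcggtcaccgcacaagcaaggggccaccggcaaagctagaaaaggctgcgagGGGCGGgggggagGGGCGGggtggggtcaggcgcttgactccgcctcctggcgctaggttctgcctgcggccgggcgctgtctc
Epha2: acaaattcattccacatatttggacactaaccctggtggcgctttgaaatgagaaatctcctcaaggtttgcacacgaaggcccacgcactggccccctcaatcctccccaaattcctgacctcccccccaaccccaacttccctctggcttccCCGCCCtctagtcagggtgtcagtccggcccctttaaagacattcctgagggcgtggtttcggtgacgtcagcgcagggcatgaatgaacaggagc
Unc5b: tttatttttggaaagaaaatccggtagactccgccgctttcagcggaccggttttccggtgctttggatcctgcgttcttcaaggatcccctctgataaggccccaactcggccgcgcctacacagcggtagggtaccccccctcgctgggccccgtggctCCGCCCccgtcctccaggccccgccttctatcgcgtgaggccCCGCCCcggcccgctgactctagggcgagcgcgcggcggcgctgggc
Unc5c: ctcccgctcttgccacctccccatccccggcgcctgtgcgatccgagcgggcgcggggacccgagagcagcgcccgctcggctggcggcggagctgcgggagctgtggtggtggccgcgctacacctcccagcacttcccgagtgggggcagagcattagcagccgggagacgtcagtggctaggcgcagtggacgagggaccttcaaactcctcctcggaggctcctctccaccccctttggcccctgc

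The Sema7a window held 2 GC boxes, the Epha2 window 1, the Unc5b window 2 and the Unc5c window none. None of the 4 windows held the AP-1 motif TGANTCA or the TATA box TATAAA, searched on both strands. The number of CpG dinucleotides was 17 for Sema7a, 9 for Epha2, 27 for Unc5b and 23 for Unc5c, where the median over 13980 promoters of tested genes was 15. A GC box was in 69.7% of 76 promoters of the 60 guidance genes with an entry, in 55.8% of the promoters of tested genes and in 32.7% of all 32851 promoters. AP-1 was in 3 of the 76 (3.95%) and in 4.88% of the promoters of tested genes, and the TATA box in 2 (2.63%) and in 6.86%. These are matches of letters in a fixed window and say nothing of binding.

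Among the semaphorins, 5 of 20 fell and none rose, where 5.63% of all tested genes fell and 3.62% rose. Their median log2 fold change was -0.39. Sema7a encodes the only class 7 semaphorin, which is held on the membrane by a lipid anchor and binds plexin C1 and beta1 integrins. Sema7a was at 22.2 and 25.5 FPKM in the KO libraries and at 88.3 and 84.3 FPKM in the WT libraries. Both KO libraries were far below both WT libraries, and the replicates of each group were close. Its log2 fold change was -1.89 (SE 0.090, adjusted p = 0.000915), a 3.71-fold lower level in KO, and by p-value it ranked at place 5 of all tested genes. Sema7a made up 39.7% and 41.5% of all semaphorin FPKM in the KO libraries and 65.5% and 65.8% in the WT libraries. It remained the most abundant semaphorin in all 4 libraries.

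The known receptors of SEMA7A were measured beside it. Plxnc1, the plexin that binds it, was at 0.12 and 0.13 FPKM in the KO libraries and at 0.15 and 0.18 FPKM in the WT libraries, and did not pass the test (log2 fold change -0.46, SE 0.31, adjusted p = 0.364). Itgb1, the shared beta subunit of the integrins that bind it, was at 172.6 and 169.0 FPKM in the KO libraries and at 173.2 and 166.5 FPKM in the WT libraries. Itga1, the alpha1 subunit, was at 1.69 and 2.34 FPKM in the KO libraries and at 3.25 and 4.28 FPKM in the WT libraries, and fell (log2 fold change -0.94, SE 0.20, adjusted p = 0.0401). The plexin was thus near the lower limit of measurement in every library, while the integrin beta subunit was abundant and overlapped between the groups.

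Membrane-spanning semaphorins of class 4 fell in 2 of 6 cases, where 5.63% of all tested genes fell. Sema4b was at 9.26 and 9.41 FPKM in the KO libraries and at 15.0 and 12.5 FPKM in the WT libraries (log2 fold change -0.59, SE 0.096, adjusted p = 0.0177). Sema4d, which acts through plexin B1 and in bone is known as an osteoclast signal to osteoblasts, was at 0.93 and 0.79 FPKM in the KO libraries and at 1.78 and 2.33 FPKM in the WT libraries (log2 fold change -1.30, SE 0.19, adjusted p = 0.0142). The KO libraries lay below the WT libraries for both genes. Sema4d is also made by blood cells, and Ptprc, the pan-leukocyte marker, was at 0.42 and 0.18 FPKM in the KO libraries and at 0.77 and 0.83 FPKM in the WT libraries. Ptprc did not pass the test (adjusted p = 0.0588), and its part in the Sema4d result was not tested. In bulk RNA, fewer cells of a type and less RNA per cell cannot be told apart. The other 4 class 4 genes, Sema4a, Sema4c, Sema4f and Sema4g, had log2 fold changes between -0.45 and 0.22 and did not pass.

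All 7 class 3 semaphorins, the secreted ones, had log2 fold changes below 0, between -0.79 and -0.15. Of all 13773 tested genes, 6804 lay below 0. 1 of the 7 passed the test, where 5.63% of all tested genes fell. That was Sema3e, which binds plexin D1 without a neuropilin and is known in blood vessel patterning. Sema3e was at 7.65 and 7.44 FPKM in the KO libraries and at 9.45 and 9.72 FPKM in the WT libraries, a small and even separation (log2 fold change -0.38, SE 0.072, adjusted p = 0.0268). Sema3c was the only other class 3 gene above 1 FPKM in every library, at 4.45 and 5.78 FPKM in the KO libraries and 6.33 and 6.73 FPKM in the WT libraries, and did not pass (log2 fold change -0.39, SE 0.14, adjusted p = 0.123). The remaining 5 were below 0.6 FPKM in every library. Of the class 6 genes Sema6a fell, at 0.71 and 0.66 FPKM in the KO libraries and 1.06 and 1.04 FPKM in the WT libraries (log2 fold change -0.65, SE 0.14, adjusted p = 0.0416). Sema6a encodes a ligand of plexins A2 and A4. Sema5a and Sema5b, the class 5 genes, had log2 fold changes of 0.05 and 0.04.

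None of the 9 plexins, the semaphorin receptors, passed the test, where 9.25% of all tested genes changed. 7 of the 9 log2 fold changes were below 0, where 6804 of all 13773 tested genes lay below 0. Plxna1 was at 19.5 and 21.1 FPKM in the KO libraries and at 23.0 and 24.1 FPKM in the WT libraries (log2 fold change -0.26, SE 0.081, adjusted p = 0.0983). Plxnb2 was at 20.9 and 23.2 FPKM in the KO libraries and at 23.0 and 21.7 FPKM in the WT libraries (log2 fold change -0.05, SE 0.081, adjusted p = 0.703). These are the most abundant plexins here, and the KO libraries were below the WT libraries for Plxna1 and overlapped them for Plxnb2. Plxnd1, the receptor of SEMA3E, was at 7.93 and 10.9 FPKM in the KO libraries and at 13.6 and 11.9 FPKM in the WT libraries (log2 fold change -0.47, SE 0.15, adjusted p = 0.101). Plxna4 had an adjusted p of 0.0508 with a log2 fold change of -0.55, and Plxna2 one of 0.0883 with -0.66. The plexin call depended on the test: DESeq2 on the same counts put Plxna2, Plxna4 and Plxnd1 past the threshold, all lower in KO. So did the authors' deposited table, which was also made by DESeq2 and is not a different test. DESeq2 called 1626 genes, which is 13.1% of the 12444 with an adjusted p. It gave an unadjusted p for 17547 genes, so its share is not over the same set as that of edgeR. Plxnb1, the receptor of SEMA4D, was at 0.61 and 1.05 FPKM in the KO libraries and at 0.62 and 0.52 FPKM in the WT libraries, with 1 KO library level with the WT libraries and the other above them. Summed plexin FPKM was 52.2 and 60.3 in the KO libraries and 64.4 and 63.1 in the WT libraries.

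**Figure D3:**
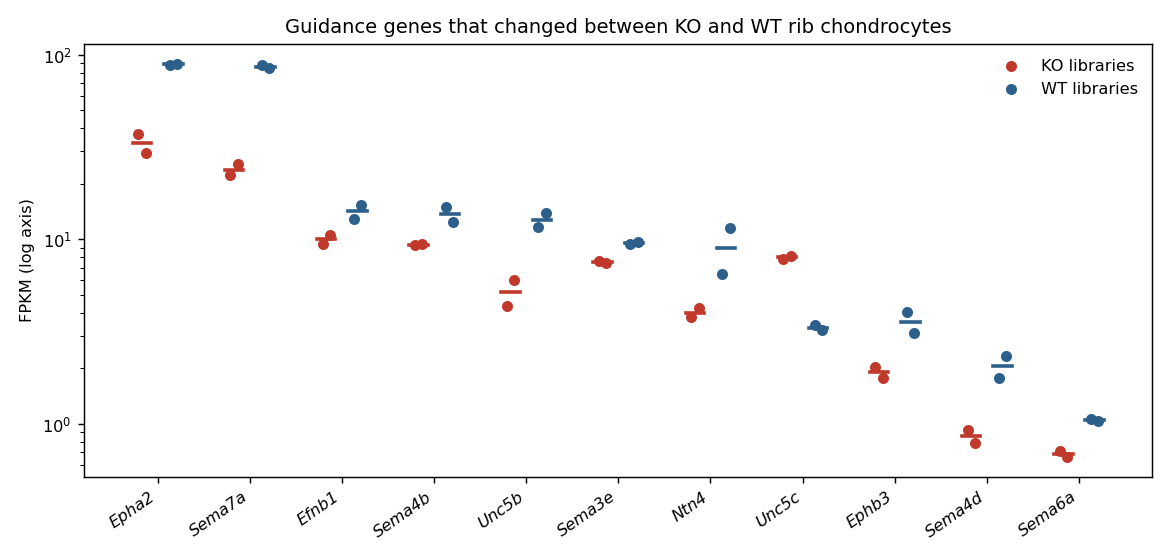
FPKM on a log axis of the 11 changed guidance genes, ordered by mean level, with KO libraries in red left of WT libraries in blue, a point for each library and a bar for the group mean. No gene has overlapping groups, but the 11 were picked by a test on these same libraries. In TMM-scaled counts 61.7% of all tested genes did not overlap either. Unc5c alone has its KO points (7.85 and 8.09 FPKM) above its WT points (3.42 and 3.22 FPKM).

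In the netrin system a pair of receptors of the same family moved in opposite directions. UNC5B and UNC5C both bind netrin-1 and mediate repulsion, and UNC5B is best known from blood vessels. Unc5b was at 4.33 and 6.05 FPKM in the KO libraries and at 11.7 and 13.8 FPKM in the WT libraries. It fell, with a log2 fold change of -1.34 (SE 0.17, adjusted p = 0.00993), a 2.52-fold lower level in KO. Unc5c was at 7.85 and 8.09 FPKM in the KO libraries and at 3.42 and 3.22 FPKM in the WT libraries. It rose, with a log2 fold change of 1.23 (SE 0.072, adjusted p = 0.0015), a 2.34-fold higher level in KO. By p-value Unc5c ranked at place 11 of all tested genes.

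The sum of both receptors moved less than either. It was 12.2 and 14.1 FPKM in the KO libraries and 15.1 and 17.1 FPKM in the WT libraries. Unc5c made up 64.4% and 57.2% of that sum in the KO libraries and 22.6% and 18.9% in the WT libraries, so the more abundant receptor was Unc5c in both KO libraries and Unc5b in both WT libraries. The endothelial markers given above also lay lower in KO, by a median log2 fold change of -0.44 and at the lowest -0.998 (Vwf), beside -1.34 for Unc5b, and their part in the Unc5b result was not tested. The remaining UNC5 genes were low: Unc5a was between 0.10 and 0.21 FPKM and Unc5d at most 0.04 FPKM. Unc5cl, a death-domain relative of the family that the name pattern also catches, was at most 0.01 FPKM.

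Neo1 encodes neogenin, a receptor for netrins and for repulsive guidance molecules. It was at 51.3 and 43.9 FPKM in the KO libraries and at 49.9 and 47.5 FPKM in the WT libraries, with overlapping groups (log2 fold change -0.07, SE 0.092, adjusted p = 0.663). Dcc, its close relative and the classical netrin receptor of neurons, was listed at 0.01 FPKM in 1 WT library and absent from the others. Among the ligands Ntn4, a laminin-like netrin of basement membranes, was at 3.77 and 4.22 FPKM in the KO libraries and at 6.48 and 11.5 FPKM in the WT libraries. It fell, with a log2 fold change of -1.21 (SE 0.27, adjusted p = 0.0427), and its WT libraries differed from each other 1.77-fold. Ntn1, the main netrin of axon guidance, was at 1.10 and 1.32 FPKM in the KO libraries and at 1.80 and 1.63 FPKM in the WT libraries, and did not pass (log2 fold change -0.54, SE 0.15, adjusted p = 0.0724). Ntn3 was at 0.48 FPKM or below in every library, and Ntn5 at 0.02 FPKM or below.

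**Figure D4:**
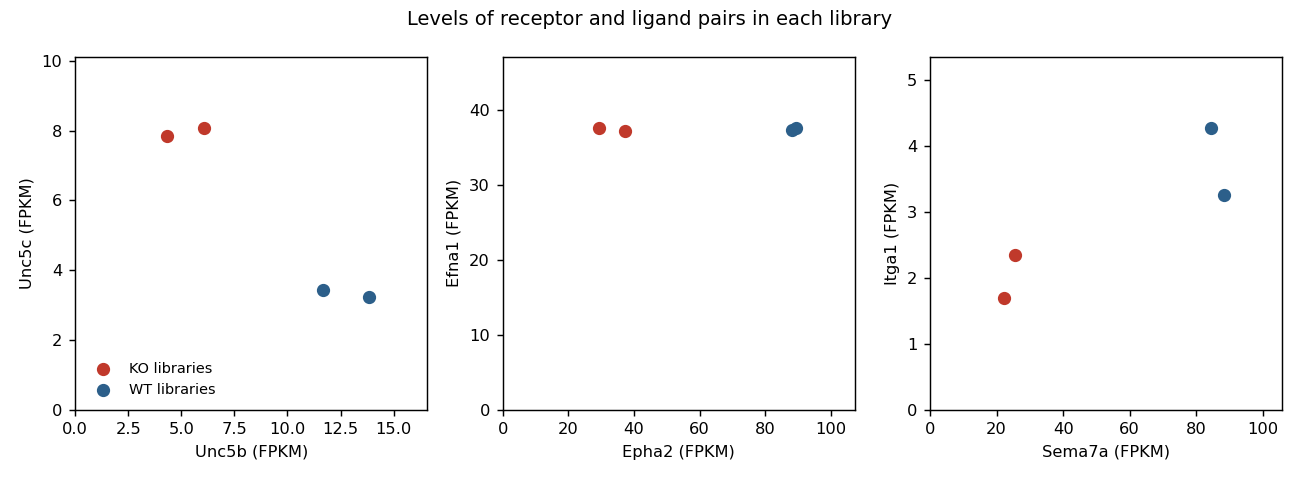
Each panel sets the FPKM of one gene against that of a partner, a point per library, KO in red and WT in blue. Unc5b and Unc5c trade places between the groups, Efna1 stays between 37.2 and 37.7 FPKM while Epha2 differs, and Itga1 is lower in both KO libraries along with Sema7a.

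Among ephrins and Eph receptors 3 of 17 tested genes fell (17.6%) and none rose, where 5.63% of all tested genes fell and 3.62% rose. Epha2, a receptor tyrosine kinase that binds ephrin-A1, was at 37.3 and 29.5 FPKM in the KO libraries and at 88.1 and 89.5 FPKM in the WT libraries. It fell, with a log2 fold change of -1.45 (SE 0.12, adjusted p = 0.0025), a 2.73-fold lower level in KO. Efna1, which encodes ephrin-A1, was at 37.2 and 37.7 FPKM in the KO libraries and at 37.4 and 37.6 FPKM in the WT libraries (log2 fold change -0.04, SE 0.069, adjusted p = 0.753). The receptor thus separated the groups while its ligand lay between 37.2 and 37.7 FPKM in all 4 libraries. The ratio of Epha2 to Efna1 FPKM was 1.002 and 0.783 in the KO libraries and 2.35 and 2.38 in the WT libraries. Epha2 made up 76.2% and 69.5% of all Eph receptor FPKM in the KO libraries and 87.0% and 88.0% in the WT libraries.

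In the B class 1 of 3 ephrins and 1 of 4 tested receptors fell, where 5.63% of all tested genes fell. Efnb1 encodes ephrin-B1, whose loss in people causes a craniofacial bone disorder. It was at 9.48 and 10.6 FPKM in the KO libraries and at 12.9 and 15.4 FPKM in the WT libraries (log2 fold change -0.53, SE 0.12, adjusted p = 0.0416). Ephb3, a receptor for B ephrins, was at 2.03 and 1.78 FPKM in the KO libraries and at 4.01 and 3.09 FPKM in the WT libraries (log2 fold change -0.93, SE 0.16, adjusted p = 0.0205). In both genes the KO libraries lay below the WT libraries, and Ephb3 differed more. Efnb2, the partner of EPHB4 in vessels and in bone, was at 3.20 and 4.16 FPKM in the KO libraries and at 5.07 and 4.78 FPKM in the WT libraries (log2 fold change -0.45, SE 0.14, adjusted p = 0.0952). Ephb4 was at 7.55 and 8.54 FPKM in the KO libraries and at 6.65 and 6.68 FPKM in the WT libraries (log2 fold change 0.23, SE 0.092, adjusted p = 0.154). Ephb4 is the most abundant B receptor here, and neither Efnb2 nor Ephb4 passed the test. Ephb6 had a log2 fold change of 0.51 (SE 0.22, adjusted p = 0.176) and Ephb2 one of -0.39 (SE 0.25, adjusted p = 0.335). Summed B receptor FPKM was 10.9 and 12.1 in the KO libraries and 12.3 and 11.3 in the WT libraries, with overlapping groups.

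Of 5 A ephrins none passed, where 9.25% of all tested genes changed. 3 of the 5 had log2 fold changes above 0, and all 3 B ephrins lay below 0. The difference between the classes was not tested. Efna4 was at 1.09 and 1.04 FPKM in the KO libraries and at 0.50 and 0.47 FPKM in the WT libraries, with a log2 fold change of 1.10 (SE 0.28, adjusted p = 0.0622). That is the highest log2 fold change of any tested guidance gene after Unc5c, at low counts, and it missed the threshold. Efna5 was at 8.19 and 7.01 FPKM in the KO libraries and at 8.67 and 7.47 FPKM in the WT libraries, with overlapping groups (log2 fold change -0.12, SE 0.11, adjusted p = 0.480). Efna2 and Efna3, with log2 fold changes of 0.47 and 0.95, did not pass either. Epha1, Epha3, Epha4 and Epha7, the other tested A receptors, were at 0.30 FPKM or below in every library.

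The Slit and Robo genes were low, and none of the 5 tested passed, where 9.25% of all tested genes changed. Robo1, a Slit receptor, was the most abundant, at 1.98 and 2.22 FPKM in the KO libraries and at 1.67 FPKM in both WT libraries (log2 fold change 0.29, SE 0.11, adjusted p = 0.151). Robo4, the endothelial Robo, was at 1.06 and 0.89 FPKM in the KO libraries and at 1.08 and 1.38 FPKM in the WT libraries (log2 fold change -0.37, SE 0.21, adjusted p = 0.277). Both KO libraries lay above the WT libraries for Robo1 and below them for Robo4. Slit1, a ligand, was at 0.43 and 0.87 FPKM in the KO libraries and at 0.52 and 0.55 FPKM in the WT libraries (log2 fold change 0.24, SE 0.34, adjusted p = 0.678). Slit3 was at 0.37 and 1.0 FPKM in the KO libraries and at 0.83 and 0.60 FPKM in the WT libraries (log2 fold change -0.09, SE 0.44, adjusted p = 0.913). For both Slits KO replicate 2 was above every other library and KO replicate 1 below, so the direction of the group difference rests on which KO library is read. In KO replicate 2 the skeletal muscle markers Acta1, Myod1, Des, Myog and Ckm also stood above every other library, Ckm at only 0.13 FPKM. Myh3 was at 0.13 FPKM there and at 0.19 FPKM in WT replicate 2. The 6 markers summed to 13.2 FPKM in KO replicate 2 and 3.15 FPKM in KO replicate 1, against 5.03 and 4.40 FPKM in the WT libraries, and their part in the Slit values was not tested. Slit2 was between 0.43 and 0.60 FPKM.

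**Figure D5:**
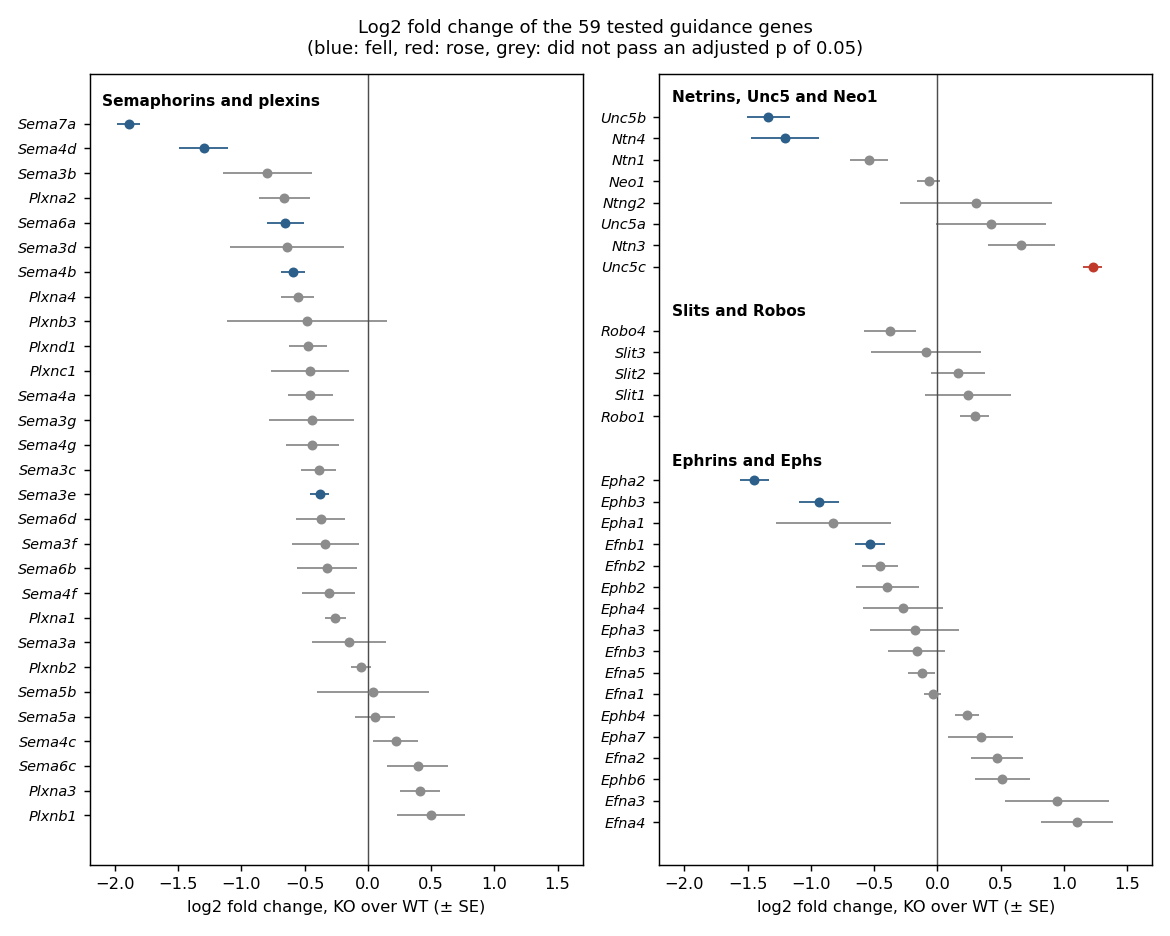
Log2 fold change, KO over WT, with its standard error for each of the 59 tested guidance genes, grouped by system and ordered by value. Genes that fell are blue, the one that rose is red, and genes that did not pass an adjusted p of 0.05 are grey. Most semaphorins and plexins lie below 0 (23 of 29), while the netrin system has 4 genes on each side.

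11 of the 70 genes had too few counts to be tested. They are Dcc, Ntn5, Ntng1, Unc5cl, Unc5d, Robo2, Robo3, Epha5, Epha6, Epha8 and Ephb1, none of them above 0.08 FPKM or 11.2 estimated counts in any library. Fitted without the filter on low counts, none of the 11 passed an adjusted p of 0.05, and Ephb1 alone had an unadjusted p under 0.05 (2 counts in each KO library, 11 and 7 in the WT libraries, adjusted p = 0.155 by edgeR). Epha5 had 9 and 10 counts in the KO libraries and 0 and 5 in the WT libraries (adjusted p = 0.362). Taking ligands and receptors over all 4 systems, 7 of 35 tested ligands fell and none rose, and of 24 tested receptors 3 fell and 1 rose, where 5.63% of all tested genes fell and 3.62% rose. The difference between ligands and receptors was not tested.

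Partners of these systems were read from a list of 71 co-receptors, other ligands and intracellular effectors, of which 64 were tested. The list was drawn up with earlier results of these data known, so its shares are not independent of them. 10 fell and 1 rose, which is 17.2% of those tested, where 9.25% of all tested genes changed, with a median log2 fold change of -0.09. Flrt3, a membrane protein that binds UNC5B, was at 5.95 and 4.98 FPKM in the KO libraries and at 12.9 and 12.2 FPKM in the WT libraries (log2 fold change -1.23, SE 0.10, adjusted p = 0.00251). Met, a receptor tyrosine kinase that associates with B plexins, was at 12.2 and 15.8 FPKM in the KO libraries and at 23.4 and 26.4 FPKM in the WT libraries (log2 fold change -0.87, SE 0.14, adjusted p = 0.0163). Flrt3 therefore fell beside Unc5b, and Met fell where Plxnb2 overlapped. Rgmb, a ligand of neogenin, had a log2 fold change of -0.56 (adjusted p = 0.036) and Chl1, an adhesion molecule that works with neuropilins, one of -0.66 (adjusted p = 0.0332).

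Of 49 tested intracellular effectors 5 fell (10.2%) and 1 rose, where 5.63% of all tested genes fell. Srgap3, an effector of Robo receptors, had a log2 fold change of -0.71 (adjusted p = 0.00948). Trio, an exchange factor in netrin signalling, had one of -0.47 (adjusted p = 0.0163), and Abl2, a kinase in the Robo pathway, one of -0.63 (adjusted p = 0.0307). Fyn, a kinase used by several guidance receptors, had one of -0.36 (adjusted p = 0.0401), and Dpysl3, a semaphorin effector of the collapsin response mediator family, one of -0.76 (adjusted p = 0.0395). Maged1, which binds UNC5 receptors, rose by 0.32 on the log2 scale (adjusted p = 0.0426); it was named after its values were seen, as the one gene of the list that rose. None of 15 tested Eph and ephrin effectors passed. Nrp1, a neuropilin, was at 4.45 and 6.52 FPKM in the KO libraries and at 6.28 and 8.87 FPKM in the WT libraries (log2 fold change -0.50, adjusted p = 0.196). Nrp2 was at 14.2 and 23.4 FPKM in the KO libraries and at 23.8 and 27.0 FPKM in the WT libraries (log2 fold change -0.46, adjusted p = 0.207), and Nrp1 overlapped between the groups while Nrp2 did not.

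With 2 libraries per group the calls lean on each library. With either WT library left out, edgeR called no gene at all, of 14121 or 14130 tested, while 3442 and 2587 had an unadjusted p under 0.05, and DESeq2 called 540 and 416 genes; with either KO library left out, edgeR called 1090 and 1275 genes. Such a fit has 1 group of 1 library, which is assumed to vary like the other group, so it takes its spread from 2 libraries alone. On that assumption DESeq2 called Sema7a, Epha2, Unc5b and Unc5c in all 4 fits with 1 library left out. It called Sema4d and Sema4b in 3 of 4, Efnb1 and Ephb3 in 2, Ntn4 in 1, and Sema3e and Sema6a in none. In the authors' deposited table, which holds all 70 genes and calls 8.52% of its genes, 12 guidance genes were lower and 1 higher in KO at an adjusted p under 0.05, and 10 of these 13 are among the 11 named above, all but Sema6a.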

How the data were processed

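Expected counts and FPKM values per gene in 4 libraries were used, and titles gave the groups and replicate numbers. The submitters' processing notes name Bowtie2 2.2.5 and mm9. The counting tool and strand setting are not given in these sources, and overlapping genes may share reads. The authors deposited expected counts, which need not be whole (74.2% to 74.6% were), and FPKM values, which divide by gene length and library size, per the file headers. The authors also deposited a table of log2 fold changes and adjusted p-values by DESeq2. Genes absent from a library were set to 0.

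Rounded expected counts went into edgeR 4.0.16 under R 4.3.3 (TMM, filterByExpr, quasi-likelihood F test, Benjamini-Hochberg over 13773 genes, threshold 0.05). The filter passed 59 of 70 guidance genes. Log2 fold changes are KO minus WT. Alternatives were RLE and upper-quartile scaling, DESeq2 1.42.0, limma 3.58.1 on log2(FPKM + 1) and log2(FPKM + 0.1), other filters, summed transcript entries, the replicate number as a block and leaving out each library, with DESeq2 as well for the last, which was added after seeing the data. Genes given in full are the changed ones and the 4 with the highest mean FPKM in each of the 4 systems; of the partner list, at most 10 changed genes by p-value and the neuropilins. Members and lists were chosen with earlier results of these data known. Promoter sequences come from RefSeq on GRCm38.p6, a later build than mm9, with no coordinates taken from the files.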

Additional observations from a re-analysis of the deposited data

How the results depend on the processing

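The 11 changed guidance genes stayed in the same direction under every alternative run. Counts of guidance genes that fell (10) and rose (1), of all changed genes (1274) and of partner genes that fell (10) and rose (1) moved by over 1.5 times as follows. Without a filter on low counts, 6 guidance genes fell, 720 genes changed in all, and 4 partner genes fell and 0 rose. With limma on FPKM, at either pseudocount, 6 guidance genes and 4 partner genes fell. Of 10952 genes tested there, 1080 changed at a pseudocount of 1 and 1068 at 0.1. Efnb1, Ntn4, Sema3e and Sema6a were the ones that no longer passed under these 3 settings, and the other 7 passed under all 9 settings that kept every library. With the replicate number as a block, 16 guidance genes fell and 2 rose, 2316 genes changed in all and 16 partner genes fell; all 11 were among the 18. Libraries of the same number had deviations that correlated by 0.126 over 13773 genes, and with 2 pairs and no label this shows no pairing by design. Leaving out 1 library gave 0 to 13 guidance genes that fell, 0 to 2 that rose, 0 to 1275 changed genes in all, and 0 to 11 partner genes that fell with 0 that rose in edgeR. DESeq2 gave 5 to 8 that fell, and 659, 793, 540 and 416 in all without KO replicate 1, KO replicate 2, WT replicate 1 and WT replicate 2, and 5 to 11 partner genes that fell with 0 that rose. Without KO replicate 1 the log2 fold change of Plxnb2 turned to 0.024 (0.020 by DESeq2) and that of Slit3 to 0.45. Without KO replicate 2 that of Neo1 turned to 0.049 (0.048 by DESeq2) and that of Slit1 to -0.35, and without WT replicate 1 that of Slit3 turned to 0.15. Over the edgeR fits with 1 library left out, Plxnb2 lay between -0.12 and 0.024, Neo1 between -0.18 and 0.049, Slit1 between -0.35 and 0.67 and Slit3 between -0.96 and 0.45. None of these passed in either direction, and the cause was not tested. The 11 genes removed by the filter had at most 11.2 estimated counts.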

Other observations

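Ntng2, a netrin-G ligand on the cell surface, was listed in 2 entries, one by gene and one by a transcript without a gene number. The gene entry held 25.2 and 88.0 estimated counts in the KO libraries and 58.0 and 29.2 in the WT libraries, and the transcript entry held 14.8 and 0 in the KO libraries and 0 and 33.8 in the WT libraries. Summed, they came to 40 and 88 counts in the KO libraries and 58.0 and 63.0 in the WT libraries. The gene entry alone gave a log2 fold change of 0.31 (SE 0.60), and the sum gave 0.00 (SE 0.39). The KO libraries differed 3.59-fold in FPKM of the gene entry, and the WT libraries 1.91-fold.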
